A study of Mus musculus with 2 samples.

Results

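A set of 40 ribosome biogenesis genes, for nucleolar proteins and RNA polymerase I, was followed across the splenic natural killer (NK) cells of a conditional knockout and its floxed control. All 40 genes were found by symbol among the 31053 genes listed in the deposited matrices. Of these, 34 averaged at least 10 unique molecular identifiers (UMIs) in each 1000000 of the population, written CPM below, over both libraries in NK cells, and are called measured; 7334 genes in all met that minimum. CD27+CD11b+ NK cells had been flow sorted from C57BL/6 spleens. The knockout, NKp46CreEP3F/F, expresses Cre from the promoter of Ncr1, the gene for NKp46, in animals with a floxed gene for the prostaglandin E2 receptor EP3 (Ptger3). The control, EP3F/F, carries the same floxed alleles without Cre. Cells of 2 mice were pooled for each genotype into 1 droplet library of 3' tags, so animals cannot be told apart and no test between genotypes was possible.

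Ribosomes begin in the nucleolus, where RNA polymerase I copies ribosomal DNA into a long precursor RNA. Guide RNA particles of the box C/D kind direct methylation of that precursor and those of the box H/ACA kind direct its pseudouridylation, while separate sets of assembly factors fold and cut it into the small and the large subunit. Many of these genes are direct targets of the transcription factor Myc, which binds the sequence CACGTG with its partner Max, and their transcripts go up when lymphocytes enter growth and division.

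That sequence was looked for in the promoters of the genes. The genes were not chosen by sequence, but known Myc targets are among them, so the motif is not independent of the choice. Promoters came from the RefSeq table of build GRCm38.p6, from 250 bases before to 50 bases after the first listed start of each gene, and 35 of the 40 genes matched; Npm1, Fbl, Bop1, Rrs1 and Rrp12 had no entry. CACGTG reads the same on both strands and was found in 8 of 35 promoters (22.9%), against 17.0% of 88 promoters of other ribosome biogenesis genes, 11.0% of those of measured genes and 7.24% of 27025 promoters in the table. In all 8 the motif lay after the start site. A motif in those 50 bases was held by 22.9% of the 35 promoters, by 5.68% of the other ribosome biogenesis genes, by 1.66% of measured genes and by 1.13% of all promoters. Since all 8 lay in that window, narrowing to it kept the share of the 35 promoters and could only lower the other shares. The 35 promoters include genes below the measured minimum, among them Tsr1, Utp20 and Mettl1, which hold the motif. With every listed start counted, 5 of 30 measured genes of the set with a promoter held CACGTG (16.7%), against 12.6% of all measured genes. The 8 windows are shown 5' to 3' on the gene's strand with the motif in capitals, and the distance is that of its first base, the first transcribed base being 1.
Pes1 (chr11:3963965-3963994, plus strand, from base 3): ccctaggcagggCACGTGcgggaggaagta
Utp4 (chr8:106893643-106893672, plus strand, from base 16): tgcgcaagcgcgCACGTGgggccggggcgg
Wdr43 (chr17:71616220-71616249, plus strand, from base 18): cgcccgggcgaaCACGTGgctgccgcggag
Tsr1 (chr11:74898092-74898121, plus strand, from base 25): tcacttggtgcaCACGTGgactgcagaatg
Mettl1 (chr10:127041950-127041979, plus strand, from base 31): agctcggctctcCACGTGgactgcgtggca
Pno1 (chr11:17211540-17211569, minus strand, from base 38): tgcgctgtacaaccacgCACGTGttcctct
Utp20 (chr10:88826765-88826794, minus strand, from base 38): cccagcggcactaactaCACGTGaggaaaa
Mybbp1a (chr11:72441347-72441376, plus strand, from base 41): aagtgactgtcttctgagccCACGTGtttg
The 8 genes span roles from large subunit assembly (Pes1) through small subunit assembly (Utp4, Wdr43, Tsr1, Pno1, Utp20) to a tRNA methyltransferase (Mettl1) and a nucleolar regulator (Mybbp1a). A second shared feature was the hosting of small nucleolar RNA genes: 7 of the 40 genes (17.5%) held at least 1 within their span on the same strand, against 2.13% of measured genes. The hosts were Nop56 with 5, Nop58 with 4, Ncl, Gnl3 and Wdr43 with 3 each, Tsr1 with 2 and Dkc1 with 1.

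The knockout library held 10615 barcodes and 42795121 UMIs, and the control library 11785 barcodes and 69853026 UMIs. After cells under 500 genes or over 10% mitochondrial UMIs were left out, the marker gate kept 9249 NK cells of 10023 in the knockout and 10480 of 10928 in the control, with medians of 3831 and 5829 UMIs per cell. Ncr1 stood at 821 CPM in knockout and 790 CPM in control NK cells. Ptger3 had 0 UMIs in knockout NK cells, where 3 counts would be 0.0769 CPM, and 13 UMIs (0.195 CPM) in control NK cells; which exons are floxed is not given in the sources used here, so this checks the labels weakly. The libraries shared 33 barcode sequences. Intervals below are exact 95% intervals and cover counting error only; with 1 library per genotype they say nothing of the spread between animals.

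In NK cells the 40 genes together took 2295 CPM in the knockout (2280 to 2310) and 2696 CPM in the control (2684 to 2708). Tags from the 3' end give about 1 UMI per captured transcript whatever its length, so levels of different genes are set side by side in CPM. Npm1, the nucleolar chaperone nucleophosmin (ENSMUSG00000057113, chr11:33152287-33163206 of GRCm38, minus strand), was the most abundant, with 611 CPM in knockout and 640 CPM in control NK cells. Ncl, nucleolin, which binds the precursor RNA (ENSMUSG00000026234, chr1:86344719-86359400, minus strand), followed with 417 CPM in knockout and 563 CPM in control cells. These 2 genes made up 26.6% and 18.2% of the sum in the knockout, and 23.7% and 20.9% in the control. Next came Nop10, a small protein of the box H/ACA particle, with 199 CPM in knockout and 181 CPM in control cells. The helicase Ddx21, at 73.5 CPM in knockout and 126 CPM in control cells, the large subunit factor Rrp1, at 101 CPM in knockout and 91.0 CPM in control cells, and the histone chaperone Npm3, at 92.3 CPM in knockout and 93.3 CPM in control cells, lay around 100 CPM in 1 or both libraries. Npm3 has 1 annotated pseudogene by name, with which reads could be shared. Pseudogenes under other names were not looked for, for Npm1 and the other genes as for Npm3.

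By role, the 7 nucleolar organisers and chaperones summed to 1283 CPM in knockout and 1549 CPM in control NK cells. The 12 large subunit factors summed to 336 CPM in knockout and 383 CPM in control cells, and the 4 box H/ACA proteins to 327 CPM in knockout and 320 CPM in control cells. The 11 small subunit factors summed to 166 CPM in knockout and 205 CPM in control cells, and the 3 box C/D proteins to 163 CPM in knockout and 214 CPM in control cells. The 2 RNA polymerase I subunits, Polr1a and Polr1b, were scarce, at 13.0 CPM together in the knockout and 18.4 CPM in the control. The 6 genes below the minimum were Nop16 (7.25 CPM in knockout, 11.4 in control), Tsr1 (7.20 in knockout, 10.9 in control), Utp20 (4.56 in knockout, 11.8 in control), Mettl1 (6.77 in knockout, 6.72 in control), Polr1b (3.79 in knockout, 5.34 in control) and Rrp12 (1.82 in knockout, 2.78 in control). Mettl1 stood at about the same level in both libraries. Genes below the minimum were not called higher or lower, and no share over all genes was taken for them.

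**Figure D1:**
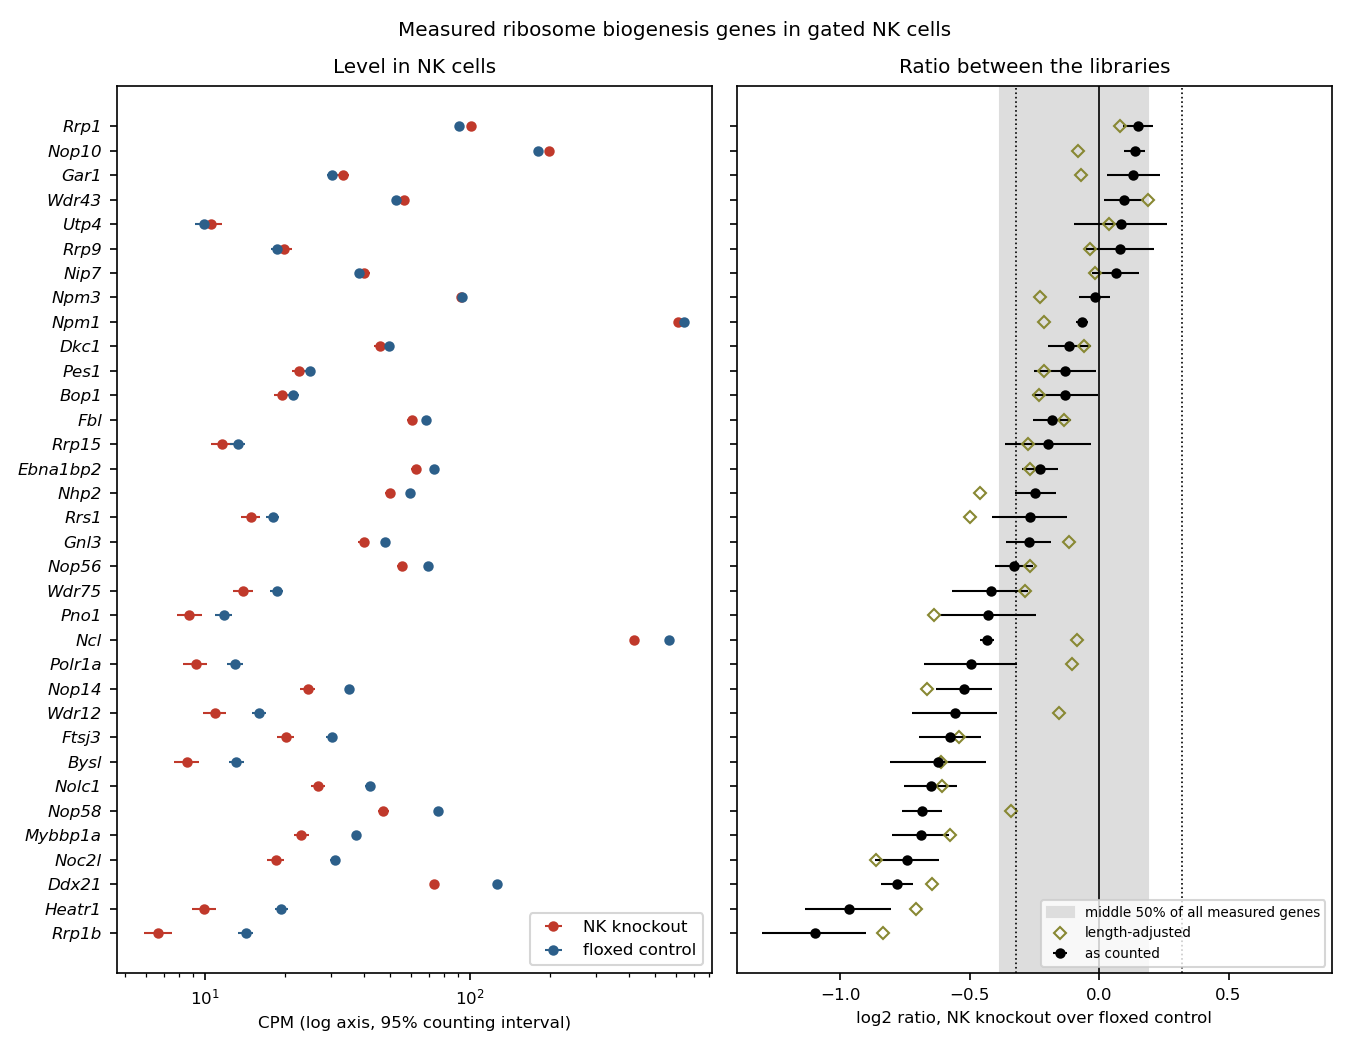
Left, the level of each measured gene in gated NK cells of the NK knockout (red) and the floxed control (blue), in CPM on a log axis with 95% counting intervals. Right, the log2 ratio of knockout over control as counted (black, with interval) and after subtraction of the median ratio of the 300 measured genes nearest in exon length (open diamonds); dotted lines mark 0.32 in either direction and the grey band the middle 50% of all 7334 measured genes. The genes run from Rrp1 at 0.15 down to Rrp1b at -1.10.

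As counted, in libraries of unequal depth, knockout NK cells carried less of most of these transcripts than control NK cells. A log2 ratio of 0.32 or more in size was used to call a gene higher or lower. On that measure 16 of the 34 measured genes were lower in the knockout, against 29.1% of all measured genes, and 0 of 34 were higher, against 14.8%. The median log2 ratio was -0.27 for the 34 genes and -0.07 over all measured genes. Their summed level gave a log2 ratio of -0.23 (-0.24 to -0.21).

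The lower genes were spread over most roles. Of the measured genes, 5 of 8 small subunit factors, 4 of 7 nucleolar organisers, 2 of 3 box C/D proteins, 4 of 11 large subunit factors, 0 of 4 box H/ACA proteins and the RNA polymerase I subunit Polr1a were lower, against 29.1% of all measured genes. These groups are too small to set 1 role apart from another, and their counts changed when genes were read against others of like length. The lowest ratio was that of Rrp1b, a nucleolar regulator related to Rrp1 (ENSMUSG00000058392, chr17:32036100-32062865, plus strand), with 6.66 CPM in knockout and 14.3 CPM in control cells, a log2 ratio of -1.10 (-1.30 to -0.90); further on, a signed number in parentheses after a pair of levels is that log2 ratio, followed by its interval where given. Heatr1, a component of the early small subunit complex that also acts in transcription of ribosomal DNA (ENSMUSG00000050244, chr13:12395027-12440289, plus strand), had 9.94 CPM in knockout and 19.4 CPM in control cells (-0.97, -1.14 to -0.80). Ddx21, which couples RNA polymerase I transcription to processing (ENSMUSG00000020075, chr10:62580251-62602281, minus strand), had a log2 ratio of -0.78 (-0.84 to -0.72). Noc2l, a large subunit factor, had 18.6 CPM in knockout and 31.0 CPM in control cells (-0.74), and Mybbp1a, a nucleolar repressor that takes part in precursor processing, had 23.1 CPM in knockout and 37.3 CPM in control cells (-0.69).

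At the other end the ratios were small. Rrp1 reached 0.15 (0.09 to 0.21), Nop10 0.14 (0.10 to 0.18) and Gar1, another box H/ACA protein with 33.1 CPM in knockout and 30.2 CPM in control cells, 0.13. Wdr43, at 56.2 CPM in knockout and 52.6 CPM in control cells, gave 0.10 and Utp4, at 10.6 CPM in knockout and 9.96 CPM in control cells, 0.08, both of them small subunit factors of the complex that forms on nascent precursor RNA. Among the other abundant genes the box C/D core proteins Nop58 (47.2 CPM in knockout, 75.9 in control, -0.68) and Nop56 (55.5 CPM in knockout, 69.8 in control, -0.33) were lower. The methyltransferase Fbl of the same particle stayed within the threshold, with 60.5 CPM in knockout and 68.6 CPM in control cells (-0.18), as did Ebna1bp2, a large subunit factor, with 62.4 CPM in knockout and 73.1 CPM in control cells (-0.23). Npm1 differed little, at -0.07 (-0.09 to -0.04), and Ncl more, at -0.43 (-0.46 to -0.41).

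The ratio between the libraries varied with exon length over all genes, so each gene was also read against the 300 measured genes nearest to it in length. Length here is that of all annotated exons of a gene merged, which can exceed that of any single transcript. It was 10188 bases for Ncl, in a span of 14682 bases, and 11955 bases for Wdr12. How far the readings below depend on this measure of length was not tested. Read that way, 13 of the 34 (38.2%) were lower, against 18.5% of measured genes, and 0 were higher, against 15.6%; the median was -0.25. Of the 16 lower genes 5 came within the threshold, with Ncl at -0.08, Polr1a at -0.11, Wdr12 at -0.16, Nop56 at -0.27 and Wdr75 at -0.29, and the box H/ACA protein Nhp2 (-0.46) and the large subunit factor Rrs1 (-0.50) passed it. By role 4 small subunit factors, 3 nucleolar organisers, 1 box C/D protein, 4 large subunit factors and 1 box H/ACA protein were then lower. Among the lowest as counted, Rrp1b (-0.84), Noc2l (-0.86), Heatr1 (-0.71) and Ddx21 (-0.65) lay well below it on this reading too.

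Cell depth differed with genotype, and the genes' share of a cell's UMIs differed with depth. In NK cells outside the dividing, S phase and chemokine-high groups (called other NK cells), the 40 genes took 2187, 2191, 2216 and 2366 CPM in the knockout and 2428, 2473, 2516 and 2779 CPM in the control, from the shallowest to the deepest of 4 equal classes of cells. In NK cells of 4000 to 6000 UMIs the summed ratio was -0.11 (-0.13 to -0.09), with 12 of the 31 genes measured there lower, against 36.6% of the 7319 measured genes, 1 higher, against 11.1%, and a median of -0.22, against -0.15 over all measured genes. The count of lower genes in that range lay near the share over all measured genes. Markers of other cells differed with genotype too. The 10 macrophage genes summed to 17.8 CPM in knockout and 7.36 CPM in control NK cells, and the 4 MHC class II genes to 23.8 CPM in knockout and 12.4 CPM in control cells. The 10 T cell genes summed to 126 CPM in knockout and 95.2 CPM in control cells, the 8 B cell genes to 5.15 CPM in knockout and 3.50 CPM in control cells, and the 4 haemoglobin genes to 110 CPM in knockout and 24.0 CPM in control cells. Of these lists, Cd3e in the control was the 1 gene at 0 in NK cells of a library. Their part in the result was not tested.

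A wider list of the pathway had a median nearer to that of all genes. Of 109 further ribosome biogenesis genes 94 were measured, of which 22 were lower in the knockout, against 29.1% of all measured genes, and 9 higher, against 14.8%, with a median log2 ratio of -0.06. The lowest were Mdn1, the large subunit remodelling ATPase (10.9 CPM in knockout, 23.0 in control, -1.08), Wdr3, a small subunit factor (18.8 CPM in knockout, 38.1 in control, -1.02), and Noc3l, a large subunit factor (11.0 CPM in knockout, 21.5 in control, -0.97). The highest were Znhit3, an assembly factor of the box C/D particle (21.9 CPM in knockout, 14.9 in control, 0.56), Ltv1, a late small subunit factor (17.8 CPM in knockout, 13.1 in control, 0.45), and Nmd3, the large subunit export adaptor (36.8 CPM in knockout, 27.0 in control, 0.45). The 79 measured ribosomal protein genes had a median ratio of 0.06, with 1 lower and 4 higher, against the same shares. Myc had 27.5 CPM in knockout and 29.5 CPM in control NK cells.

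NK cells were next cut by marker UMIs. Dividing cells had at least 5 UMIs of mitosis genes such as Mki67 and Top2a, S phase cells at least 5 of replication genes such as Mcm2 to Mcm7, and chemokine-high cells at least 25 UMIs per 10000 from Ccl3, Ccl4 and Xcl1. The rest were ranked by the share of maturation genes such as Klrg1 and Zeb2 among maturation and immaturity genes, and cut into 3 classes within each library. A log2 ratio of at least 0.58 was used to call a gene higher or lower between populations. The summed level per cell is shown for each population.

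**Figure D2:**
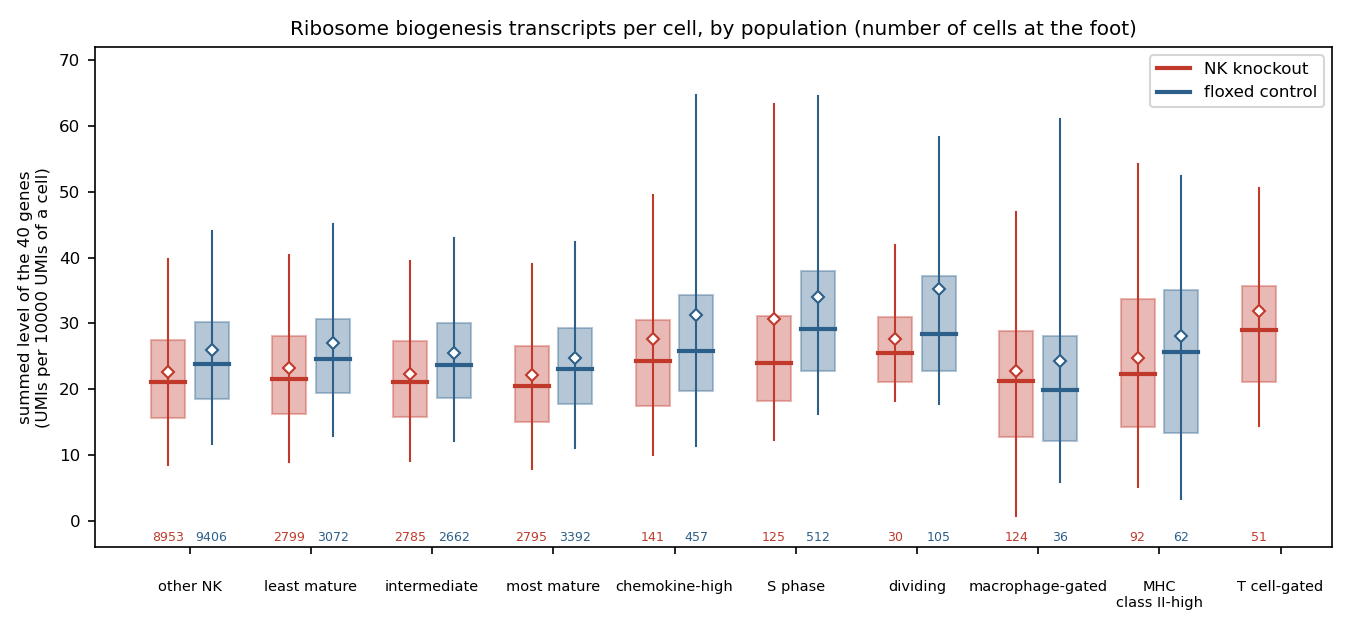
Summed level of the 40 genes in each cell, in UMIs per 10000 UMIs of the cell, by population, with the NK knockout (red) left of the floxed control (blue). Lines are medians, boxes the middle 50% of cells, whiskers the middle 90%, diamonds the level over all UMIs of the population, and figures at the foot the number of cells. Medians of dividing (25.5 in the knockout, 28.4 in the control), S phase (23.9 in the knockout, 29.2 in the control) and chemokine-high cells (24.3 in the knockout, 25.9 in the control) lie above those of other NK cells (21.1 in the knockout, 23.8 in the control), and the T cell-gated knockout cells have a median of 28.9.

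Dividing NK cells carried more of these transcripts, with Nop58, Nop56, Nhp2 and Npm3 among the highest ratios. The 40 genes took 2763 CPM in 30 dividing cells and 2263 CPM in 8953 other NK cells of the knockout, and 3528 CPM in 105 dividing cells and 2591 CPM in 9406 other NK cells of the control. Over the 34 measured genes the summed log2 ratio was 0.28 (0.18 to 0.38) in the knockout and 0.44 (0.40 to 0.48) in the control. In the knockout 7 genes were higher, against 12.4% of measured genes, and 2 lower, against 30.3%; in the control 9 were higher, against 7.92%, and 0 lower, against 16.1%. Genes higher in both libraries numbered 5, against 5.37% of measured genes, and were Nop56, Nop58, Nhp2, Rrp1b and Rrp15.

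Nop58 (ENSMUSG00000026020, chr1:59684971-59719044, plus strand), a core protein of the box C/D particle, stood at 112 CPM in dividing and 44.4 CPM in other NK cells of the knockout (1.33, 0.80 to 1.82), and at 140 and 70.4 CPM in the control (0.99, 0.76 to 1.21). Its partner Nop56 had 98.8 CPM in dividing and 54.8 CPM in other cells of the knockout (0.85), and 111 and 66.4 CPM in the control (0.74). The box H/ACA protein Nhp2 had 85.6 CPM in dividing and 48.3 CPM in other cells of the knockout (0.82), and 89.5 CPM in dividing and 55.1 CPM in other cells of the control (0.70). Both kinds of modification particle were represented among the higher genes. Npm3 had 214 CPM in dividing and 91.1 CPM in other cells of the knockout (1.23, 0.86 to 1.59) and a smaller difference in the control, with 133 and 91.0 CPM (0.54, 0.31 to 0.76). Rrp15, a large subunit factor, had only 6 UMIs in the dividing knockout cells (0.81, -0.64 to 1.95) and 39 in the control, where the ratio was 1.32 (0.82 to 1.79). Rrp1b, with 3 UMIs in the dividing knockout cells (0.61, -1.68 to 2.18) and 26 in those of the control (0.60, -0.02 to 1.16), rested on counts as small.

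Several of the lowest ratios came from small counts in the dividing knockout cells as well. Rrp9, a protein of the U3 particle, had 3 UMIs in dividing knockout cells (-0.98, -3.26 to 0.58) and 30 in dividing control cells (0.40, -0.18 to 0.92). Utp4, with 3 and 10 UMIs, gave -0.06 (-2.34 to 1.50) in the knockout and -0.29 (-1.36 to 0.60) in the control. The small subunit factor Nop14 (-0.56 in knockout, 0.12 in control), Ebna1bp2 (-0.53 and 0.11) and the large subunit methyltransferase Ftsj3 (-0.61 and 0.28) differed in sign between libraries, each with an interval that held 0. In both libraries 5 measured genes, Npm1, Npm3, Nop56, Nop58 and Nhp2, had an interval above 0, against 7.53% of measured genes. An interval below 0 was found for 0 of 34 in either library, against 12% of measured genes in the knockout, 23.5% in the control and 7.79% in both.

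Dividing cells were also the deepest, with medians of 10810 UMIs in the knockout and 11668 in the control. Within the deepest 5% of cells the summed ratio was 0.17 in the knockout and 0.50 in the control. With the deepest 5% left out the control, with 52 dividing cells, gave 0.03, and the knockout had 7 such cells, too few for a level. Median-of-ratios scaling moved all genes by 0.19 in the knockout and 0.14 in the control and put the sums at 0.47 and 0.58.

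In the wider pathway 6 of 94 genes were higher in dividing knockout cells, against 12.4% of measured genes, and 26 lower, against 30.3%; in dividing control cells 8 were higher, against 7.92%, and 2 lower, against 16.1%. The exosome subunit Exosc8 was higher in both libraries, with 105 CPM in dividing and 61.5 CPM in other cells of the knockout (0.78), and 111 and 57.6 CPM in the control (0.94). Nol11, a factor of RNA polymerase I transcription, gave 1.01 in the knockout and 0.25 in the control, and Nifk, a partner of the proliferation antigen Ki-67, 1.02 and 0.12. At the low end stood the helicases Ddx54 (-2.21, from 3 UMIs, in the knockout and -0.33 in the control) and Ddx56 (0 UMIs in the dividing knockout cells, 0.88 in the control). Nol6, a small subunit factor, gave -1.63 from 1 UMI (-6.94 to 0.85) in the knockout and -0.61 in the control.

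S phase cells, a larger group, also carried more of these transcripts. The summed log2 ratio of S phase over other NK cells was 0.42 (0.37 to 0.48) in 125 knockout cells and 0.38 (0.36 to 0.41) in 512 control cells. Median depth was 7293 UMIs in S phase and 3804 in other NK cells of the knockout, and 9431.5 and 5694 in the control. In S phase cells of 4000 to 6000 UMIs the whole set took 2484 CPM (2214 to 2777) in the knockout, from 25 cells. Other NK cells there took 2280 CPM, within that interval. In the control the levels were 2967 CPM (2788 to 3155), from 66 cells, and 2446 CPM. Without the deepest 5% they were 2984 and 2242 CPM in the knockout and 3149 and 2576 CPM in the control. Of the 34 measured genes, 32 lay above 0 in both libraries, against 27.8% of measured genes; 10 were higher in the knockout, against 3.49% of measured genes, and 5 in the control, against 1.3%, and 0 were lower in either, against 4.9% and 0.395%. In both libraries 10 genes had an interval above 0, against 4.39% of measured genes, and they were Npm1, Ncl, Fbl, Nop58, Dkc1, Nhp2, Rrp9, Pno1, Mybbp1a and Gnl3. Pno1, which helps form the end of small subunit RNA, had 17.3 CPM in S phase and 8.35 CPM in other cells of the knockout (1.05), and 18.4 CPM in S phase and 10.9 CPM in other cells of the control (0.75). Fbl, at 88.6 CPM in S phase and 59.1 CPM in other cells of the knockout (0.58) and at 101 CPM in S phase and 64.1 CPM in other cells of the control (0.65), was among the 4 genes higher in both, with Nhp2, Pno1 and Rrp15. Nip7, a large subunit factor, lay at -0.04 in the knockout and 0.02 in the control, and Npm3, higher in the dividing knockout cells, at -0.01 and 0.24.

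**Figure D3:**
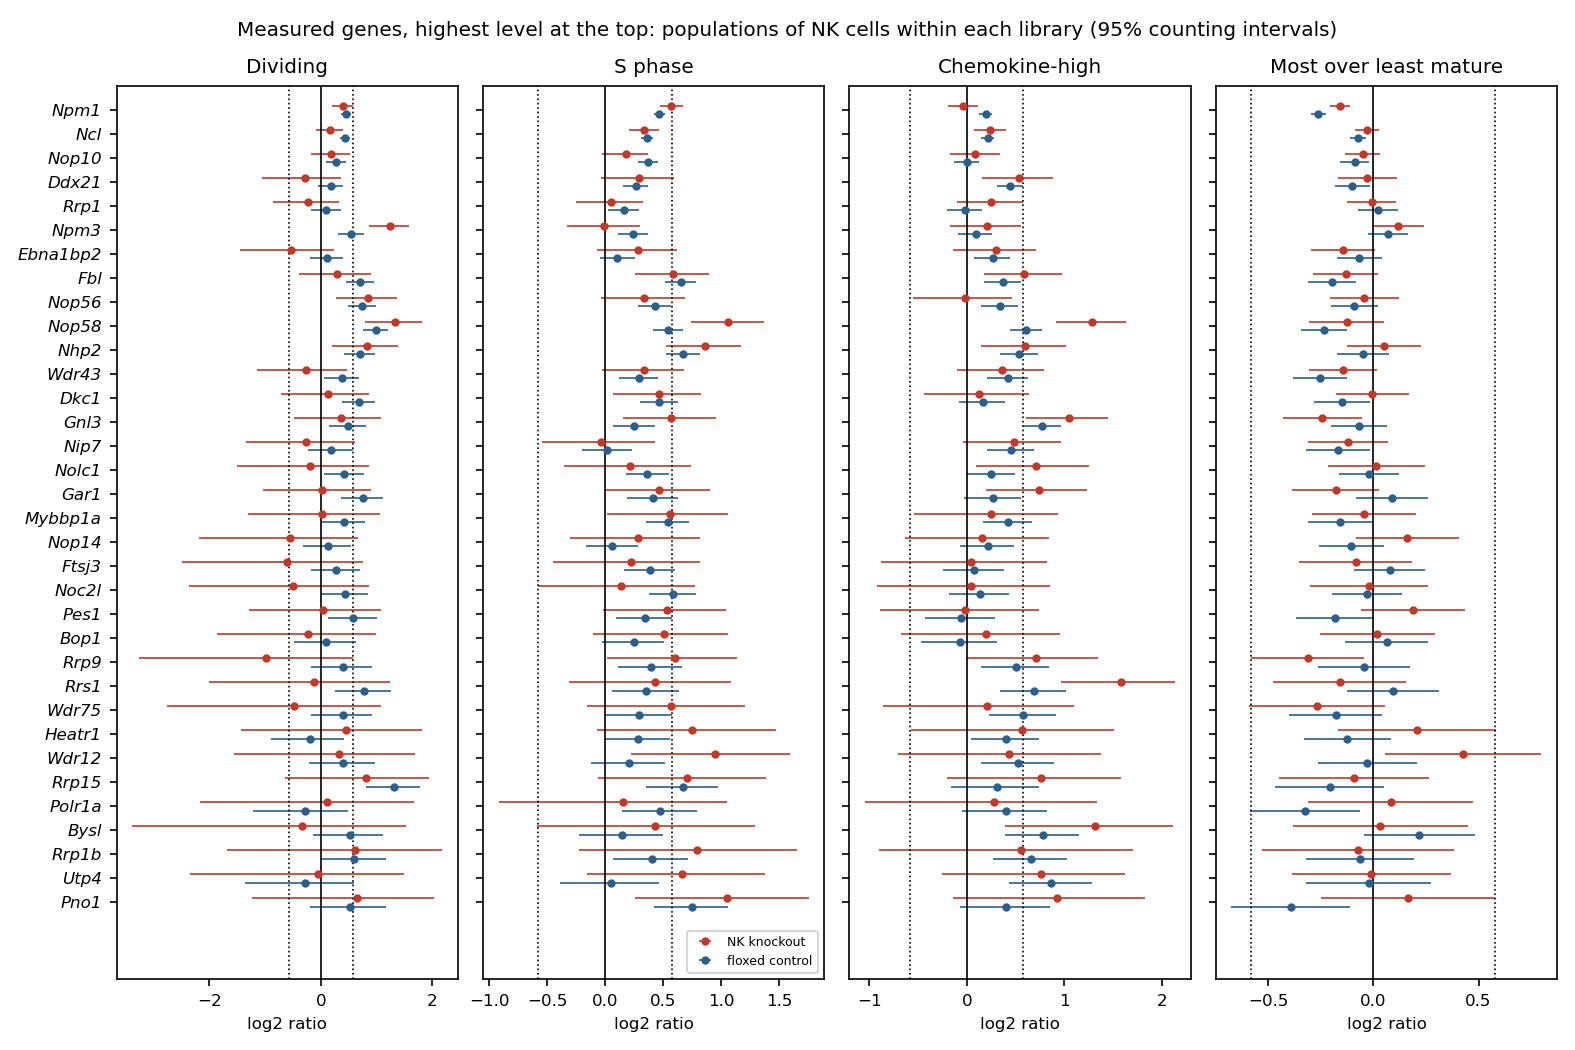
Log2 ratios with 95% counting intervals for the 34 measured genes, ordered by level with Npm1 at the top, in dividing, S phase and chemokine-high cells over other NK cells and in most over least mature cells, in the NK knockout (red, upper) and the floxed control (blue, lower). Dotted lines mark 0.58 in either direction. Nop58 lies to the right in the first 3 panels in both libraries, and in the last panel 0 of the 34 genes lie beyond the dotted lines.

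Chemokine-high NK cells, which carried many Ccl3, Ccl4 and Xcl1 transcripts, also held more of these genes, led by Rrs1, Bysl, Nop58, Gnl3 and Utp4. The 40 genes took 2763 CPM in 141 chemokine-high cells and 2263 CPM in other NK cells of the knockout, and 3135 CPM in 457 chemokine-high cells and 2591 CPM in other NK cells of the control. The summed log2 ratio of the measured genes was 0.28 (0.21 to 0.35) in the knockout and 0.27 (0.23 to 0.30) in the control. In the knockout 12 genes were higher, against 6.19% of measured genes, and in the control 6, against 1.79%; 0 were lower, against 13.7% and 2.7%. Those 5 leading genes were higher in both libraries (1.39% of measured genes).

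Rrs1, which brings 5S RNA into the large subunit (ENSMUSG00000061024, chr1:9545408-9547455, plus strand), had 42.9 CPM in chemokine-high and 14.4 CPM in other NK cells of the knockout (1.58, 0.96 to 2.14), and 27.3 and 16.9 CPM in the control (0.69, 0.34 to 1.02). The small subunit factor Bysl had 20.7 CPM in chemokine-high and 8.30 CPM in other cells of the knockout (1.32, 0.39 to 2.11), and 21.6 CPM in chemokine-high and 12.6 CPM in other cells of the control (0.78, 0.39 to 1.15). Nop58 reached 108 CPM in chemokine-high cells of the knockout and 107 CPM in those of the control, with ratios of 1.28 (0.91 to 1.63) and 0.61 (0.44 to 0.77). In that population its level was thus nearly equal between libraries, whereas in other NK cells it stood at 44.4 CPM in the knockout and 70.4 CPM in the control. Gnl3, the nucleolar GTPase nucleostemin, had 79.5 CPM in chemokine-high and 38.5 CPM in other cells of the knockout (1.05, 0.61 to 1.45), and 78.0 CPM in chemokine-high and 45.5 CPM in other cells of the control (0.78, 0.58 to 0.97). Utp4 had 17.5 CPM in chemokine-high cells of both libraries, against 10.3 CPM in other NK cells of the knockout (0.76, -0.25 to 1.62) and 9.62 CPM in those of the control (0.87, 0.43 to 1.28).

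Intervals lay above 0 in both libraries for 8 genes, against 4.1% of measured genes, which added Ncl, Ddx21, Fbl and Nhp2 to Rrs1, Bysl, Nop58 and Gnl3. The lowest ratios were near 0. Pes1 and Bop1, which work together in large subunit assembly, gave -0.01 and 0.20 in the knockout and -0.06 and -0.07 in the control. Nop10 (0.09 in knockout, -0.00 in control) and Ftsj3 (0.04 and 0.07) lay there too. Npm1 had 587 CPM in chemokine-high and 602 CPM in other NK cells of the knockout (-0.04, -0.19 to 0.11), and 701 and 613 CPM in the control (0.19, 0.13 to 0.26). Without Npm1 and Ncl the summed ratio was 0.43 in the knockout and 0.31 in the control.

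Myc itself was at 93.8 CPM in chemokine-high and 26.3 CPM in other NK cells of the knockout, and at 72.2 and 27.4 CPM in the control. In the wider pathway 9 of 94 genes were higher in the knockout, against 6.19% of measured genes, and 7 lower, against 13.7%; in the control 5 were higher, against 1.79%, and 0 lower, against 2.7%. Ppan, a large subunit factor, was the highest, with 36.6 CPM in chemokine-high and 15.2 CPM in other cells of the knockout (1.27), and 28.3 and 16.3 CPM in the control (0.80). Ltv1 gave 0.80 in the knockout and 0.66 in the control, and Utp15, a small subunit factor, 1.09 and 0.24. The lowest were Nol6 (-1.68 from 2 UMIs, -4.73 to 0.18, in the knockout and 0.38 in the control), Mdn1 (-1.21 from 3 UMIs, -3.50 to 0.35, and 0.23) and the SUMO protease Senp3 (-0.53 and -0.33). Depth differed less here than for dividing cells, with medians of 4350 UMIs in knockout and 6167 in control chemokine-high cells, and in cells of 4000 to 6000 UMIs the summed ratio was 0.24 in the knockout and 0.30 in the control. At a looser threshold of 10 chemokine UMIs per 10000 the sums were 0.10 and 0.15 and 0 genes were higher in both libraries.

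Along the maturation score, within cells all sorted as CD27+CD11b+, the genes differed little. Cells outside that sort were not sampled, and the score includes the genes of both sort markers, Cd27 and Itgam. Levels of the 40 genes in the least mature, intermediate and most mature cells were 2328, 2234 and 2212 CPM in the knockout and 2704, 2555 and 2477 CPM in the control. The summed log2 ratio of most over least mature cells was -0.07 (-0.10 to -0.05) in the knockout and -0.12 (-0.14 to -0.10) in the control, and 0 of 34 genes passed 0.58 in either direction, where 1.1% and 0.75% of measured genes were higher and 1.15% and 0.982% lower. In both libraries 19 of the 34 genes lay below 0, against 22.7% of measured genes, and 3 above, against 47.4%. Intervals lay below 0 for 3 genes in the knockout, against 9.26%, and for 12 in the control, against 11.3%. Npm1 was the 1 gene with an interval below 0 in both, against 6.38% of measured genes, with 576 CPM in the most and 643 CPM in the least mature cells of the knockout (-0.16, -0.21 to -0.11), and 555 and 665 CPM in the control (-0.26, -0.30 to -0.22).

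The other low ratios were those of Wdr75 (-0.27 in the knockout, -0.18 in the control), Wdr43 (-0.14 and -0.25), Nop58 (-0.13 and -0.24) and Rrp9 (-0.31 and -0.04). The high end held Wdr12, the third protein of the Pes1 and Bop1 complex (0.43, 0.06 to 0.80, in the knockout and -0.03 in the control), Bysl (0.03 and 0.22), Npm3 (0.12 and 0.07), Heatr1 (0.21 and -0.12) and Bop1 (0.02 and 0.06). Of these Npm3, Bysl and Bop1 had the same sign in both libraries. In the wider pathway 0 of 94 genes passed 0.58 in either library; Nob1, Exosc5 and Rpf2 were lowest (-0.32, -0.23 and -0.11 in the knockout; -0.14, -0.22 and -0.33 in the control), and Ddx10, Taf1b and Imp4 highest (0.15, 0.19 and 0.13; 0.19, 0.06 and 0.10). The 79 ribosomal protein genes had larger and more uniform ratios, with medians of -0.17 in both libraries and an interval below 0 for 77 of them in each. Depth also differed, with medians of 3613 UMIs in the most and 4112 in the least mature knockout cells, and 5232 and 6235.5 in the control; in cells of 4000 to 6000 UMIs the sums were -0.04 in both libraries. The cuts, at mature shares of 0.130 and 0.346 in the knockout and 0.267 and 0.5 in the control, had 1690 and 944 knockout cells and 1328 and 985 control cells within 0.05 of them, so the classes are ranges of a score. Within the classes, from least to most mature, 15, 15 and 14 of the 34 genes were lower in the knockout than in the control by at least 0.32, against 30%, 29.4% and 30.3% of measured genes.

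Cells with and without a Myc UMI were compared among other NK cells after each was thinned to 2000 UMIs, a comparison added after other values had been seen; 197 knockout and 143 control cells were shallower and were left out. The 40 genes took 2188 CPM in 414 Myc-positive and 2244 CPM in 8342 Myc-negative cells of the knockout, and 2483 CPM in 442 Myc-positive and 2539 CPM in 8821 Myc-negative cells of the control. The summed log2 ratio of the measured genes was -0.03 (-0.10 to 0.04) in the knockout and -0.03 (-0.09 to 0.04) in the control. In the knockout 2 genes were higher and 3 lower, against 2.33% and 6.01% of measured genes, and in the control 1 was higher and 4 were lower, against 1.72% and 5.18%. The intervals of both sums held 0. Myc stood at 26.3 CPM in other NK cells of the knockout and at 27.4 CPM in those of the control. At such levels most cells thinned to 2000 UMIs hold no Myc UMI whatever their expression. The split therefore sorts cells poorly by Myc level, and whether the genes follow Myc was not tested.

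Outside the NK gate the sum lay near that of other NK cells in macrophage-gated cells and above it in T cell-gated cells. Every nucleated cell type makes ribosomes, so no cell type here gives a background level for free RNA. Macrophage-gated cells took 2278 CPM in the knockout (124 cells) and 2427 CPM in the control (36 cells), MHC class II-high cells 2482 CPM (92 cells) and 2808 CPM (62 cells), and the 51 T cell-gated cells of the knockout 3191 CPM. The control had 19 T cell-gated cells, and B cells numbered 5 in the knockout and 1 in the control, too few for a level. Over other NK cells of the same library, the measured genes summed to a log2 ratio of -0.02 (-0.15 to 0.11) in knockout and -0.10 (-0.38 to 0.17) in control macrophage-gated cells, to 0.13 (0.00 to 0.25) and 0.12 (-0.03 to 0.27) in MHC class II-high cells, and to 0.49 (0.39 to 0.58) in knockout T cell-gated cells.

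The highest ratio in macrophage-gated cells of both libraries was that of Wdr75, a small subunit factor needed for RNA polymerase I transcription (ENSMUSG00000025995, chr1:45795166-45823619, plus strand). It had 82.5 CPM in macrophage-gated and 13.8 CPM in other NK cells of the knockout (2.58, 1.82 to 3.26), and 131 CPM, from 6 UMIs, and 17.8 CPM in the control (2.88, 1.43 to 4.01). Npm3 was low in macrophage-gated cells of the knockout, with 27.5 CPM against 91.1 CPM in other NK cells (-1.73, -3.18 to -0.60). In the control it had 43.7 CPM (5.29 to 158) from 2 UMIs, against 91.0 CPM in other NK cells. That is below the 65.6 CPM that 3 counts would give, too few to tell. In the knockout 11 of 34 genes were higher and 11 lower in macrophage-gated cells, where 17.5% and 47.6% of measured genes were; in the control 8 were higher and 16 lower, where 21.7% and 51% were.

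In MHC class II-high cells Npm1, Fbl and Nhp2 had intervals above 0 in both libraries, 3 of 34 genes, against 4.35% of measured genes. Npm1 had 1028 CPM in them and 602 CPM in other NK cells of the knockout (0.77), and 931 and 613 CPM in the control (0.60). Fbl had 122 CPM in MHC class II-high and 59.1 CPM in other NK cells of the knockout (1.04), and 164 CPM in MHC class II-high and 64.1 CPM in other NK cells of the control (1.36). In the knockout 6 genes were higher and 14 lower, where 7.92% and 65% of measured genes were, and 8 and 10 in the control, where 11.3% and 61.2% were.

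T cell-gated knockout cells had 13 of 34 genes higher than other NK cells, against 9.05% of measured genes, and 0 lower, against 38.7%. Wdr12, with 49.2 CPM in T cell-gated and 10.6 CPM in other NK cells, was the highest (2.22, 1.30 to 3.01). Polr1a gave 1.72 (0.50 to 2.72), Nolc1, the chaperone of the modification particles, 1.29 (0.50 to 1.98), and Fbl 0.99 (0.43 to 1.50). Depth in the gates differed, with medians of 1418.5 UMIs in macrophage-gated, 2084.5 in MHC class II-high and 5378 in T cell-gated knockout cells, and 1137, 1751 and 5930 in the control cells so gated.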

How the data were processed

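Each library was deposited by the authors as a matrix of raw, unscaled UMI counts of genes by barcodes; the file headers name version 3.0.0 of the matrix software. Per the submitters' processing notes the build was GRCm39 and the tools included Seurat, STAR and Cell Ranger 3.0.0; per the labels' protocols the kit was Single Cell 3' v2. Reads were not used.

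Cells under 500 genes or over 10% mitochondrial UMIs were left out and the rest gated on raw marker UMIs; no clusters were made and no doublets were called, and results without the deepest 5% of cells are in the closing section. NK cells needed at least 3 UMIs from 2 or more of 8 NK genes and few macrophage, B cell, T cell or MHC class II UMIs. UMIs were summed per library and population, divided by the total and given in CPM with exact Poisson intervals, and each ratio of 2 sums with an exact interval found by conditioning on their total. Populations under 20 cells were given no level. With 1 library per genotype there was no test, and a log2 size of 0.32 (genotype) or 0.58 (populations) marked a gene, read against all 7334 genes of at least 10 CPM. Values are named for the 10 most abundant measured genes, the 5 highest and 5 lowest of each comparison, and the 3 highest and 3 lowest of the wider pathway list; S phase, Myc and other cell types were described besides. The genes, lists and gates were chosen with earlier results of these data known. GENCODE positions and exon lengths are of build GRCm38 and were joined by gene ID only. Ratio code was tested on simulated counts. Scripts ran in Python 3.11.15 with scipy 1.17.1, numpy 2.4.6 and pandas 2.3.3, and figures were drawn with matplotlib 3.10.9.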

Additional observations from a re-analysis of the deposited data

Results flagged for a closer look

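The ratio of Npm1 between the libraries took different signs in different NK populations when levels were given in CPM. Knockout over control, its log2 ratio was 0.053 in the most mature cells, against -0.048 in the least mature, -0.059 in the intermediate and -0.26 in the chemokine-high cells, each with a counting interval clear of 0. These signs depend on the scaling: the median ratio of all measured genes was -0.071 in the least mature, -0.067 in the intermediate and -0.067 in the most mature cells, and with median-of-ratios scaling Npm1 came to 0.12 in the most mature cells, against 0.023 (-0.017 to 0.063) in the least mature, 0.0077 (-0.036 to 0.051) in the intermediate and -0.16 in the chemokine-high cells. The maturation classes were also cut within each library, at mature shares of 0.130 and 0.346 in the knockout and 0.267 and 0.5 in the control. A class therefore does not cover the same range of the score in both libraries. With 1 library per genotype the difference between these ratios was not tested.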

How the results depend on the processing

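No paired analysis was possible because each genotype has 1 library and its replicate number is only a name; for the same reason no replicate could be left out. Of 196 values recomputed under another setting, 136 stayed within their counting interval, or within 1.5 times for counts, 60 moved and 0 reversed. The 136 include counts that were 0 in every setting, such as genes higher or lower in both libraries between maturation classes. Between genotypes the median moved in 14 settings and stayed in 4, and the summed level moved in 10 and stayed in 7. The number of genes called lower between genotypes ranged from 4 to 21. Between genotypes the summed log2 ratio came to -0.20 with cells thinned to 2000 UMIs, -0.16 with median-of-ratios scaling, -0.19 with the total taken without ribosomal protein and mitochondrial genes, -0.21 without the deepest 5% of cells, -0.20 with a minimum of 50 CPM, -0.19, -0.21, -0.19 and -0.16 within other, least mature, intermediate and most mature NK cells, and -0.11 in cells of 4000 to 6000 UMIs. Genes called lower numbered 4 of 12 at 50 CPM (33.3%, against 28.4% of all genes at that minimum) and 8 of 34 at a size of 0.58 (23.5%, against 13.7%); 1 gene was higher within the least mature cells and within 4000 to 6000 UMIs. For dividing over other NK cells the sums in the knockout and control were 0.14 and 0.33 with thinning, when 2 genes were lower in both, 0.47 and 0.58 with median-of-ratios scaling, 0.17 and 0.50 from 10 mitosis UMIs, when 3 genes were higher in both, 0.42 and 0.38 with S phase in their place, and 0.17 and 0.50 within the deepest 5%; without these the control gave 0.031. For chemokine-high over other NK cells they were 0.43 and 0.31 at a threshold of 50 per 10000, 0.10 and 0.15 at 10, when 0 genes were higher in both, and 0.43 and 0.31 without Npm1 and Ncl, and in the control 0.22 with thinning, 0.31 with median-of-ratios scaling and 0.30 at 4000 to 6000 UMIs. For most over least mature cells they were -0.11 and -0.17 with median-of-ratios scaling, -0.14 and -0.19 without ribosomal protein and mitochondrial genes in the total, -0.042 and -0.082 without Npm1 and Ncl, and -0.040 and -0.037 at 4000 to 6000 UMIs; with mature shares of at most 0.2 and at least 0.8 the control gave -0.18. The cause of these moves was not tested. The deepest 5% alone, the 4000 to 6000 UMI range and the sums without Npm1 and Ncl were chosen after seeing the data. Not run for want of 20 cells were dividing knockout cells without the deepest 5%, dividing cells of 4000 to 6000 UMIs and chemokine-high cells within the deepest 5%. Depth limits single genes most in the 30 dividing knockout cells, where several rest on fewer than 10 UMIs.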
